A study of Mus musculus with 4 samples.

Results

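The heat shock chaperones followed here are the 10 genes Hspa1a, Hspa1b, Hspa8, Hsp90aa1, Hsp90ab1, Hsph1, Dnajb1, Hspd1, Hspe1 and Hspb1. They were taken by symbol from the 32285 genes of the deposited matrices, and each symbol occurred with 1 Ensembl identifier. The lungs were those of female FVB/NJ mice with the MMTV-PyMT transgene, a mammary tumour model in which the mouse mammary tumour virus promoter drives the polyoma middle T oncogene, and all mice of both groups belong to this model. A pellet was placed at 8 weeks of age and carried for 5 weeks, so that lungs were taken at 13 weeks. In 2 mice the pellet was a placebo, and in 2 mice it held 5 mg tamoxifen, an oestrogen receptor modulator, for release over 60 days. Perfused lungs were digested with dispase, collagenase, elastase and DNase at 37 °C, and single-cell RNA was sequenced with the 10x Genomics 5' chemistry as 1 library a mouse. With 2 mice a group, an exact permutation test of 1 value cannot go below a two-sided p of 0.333, so differences were tested with a model fitted across all genes.

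Molecular chaperones bind unfolded stretches of other proteins and help them to fold, to assemble or to be degraded. Most cells make a large constant supply of them, while heat shock factor 1 switches on a further, inducible set when unfolded proteins build up. The inducible genes are also known to respond to warm enzyme digestion, a step that all 4 lungs went through.

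The 4 libraries held between 32646505 and 37285982 unique molecular identifiers (UMIs, counts of captured RNA molecules), and between 6676 and 7480 cells a mouse were kept, 28477 in all. The median cell had 2626 and 4066 UMIs under placebo and 3234 and 2909.5 under tamoxifen. Mitochondrial shares of the median cell were 0.947%, 0.227%, 0.994% and 0.533% in the same order of mice. Between 61 and 74 barcodes were shared by any pair of libraries. Cells were placed 1 by 1 in cell types by marker genes, and the ending "-like" marks that a name has no other basis. Placement succeeded for 25494 cells, and 21 types held at least 20 cells in every mouse. The 8 main types were neutrophil-like (12135 cells), B cell-like (1851), T cell-like with neither or both of Cd4 and Cd8 (1424), alveolar fibroblast-like (1143), alveolar macrophage-like (1134), CD4 T cell-like (884), CD8 T cell-like (687) and interstitial macrophage-like cells (815).

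The promoters of the inducible genes are shown first because they bear on how well the members can be told apart and on which of them carry the binding motif of heat shock factors. Capitals mark matches to GAANNTTC or TTCNNGAA, which are inverted repeats of the 3-base unit GAA that heat shock factors bind. Each of these motifs reads the same on both strands, so 1 strand was searched. The stretches are the 250 bases before the start in RefSeq on build GRCm38.p6, and the first pair lies on the minus strand at chr17:34972157-34972406 and chr17:34959239-34959488.
Hspa1a: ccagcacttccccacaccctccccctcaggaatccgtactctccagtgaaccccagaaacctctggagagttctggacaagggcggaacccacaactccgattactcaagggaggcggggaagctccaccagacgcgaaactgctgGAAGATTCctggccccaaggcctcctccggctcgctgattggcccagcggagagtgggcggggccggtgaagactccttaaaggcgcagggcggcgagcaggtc
Hspa1b: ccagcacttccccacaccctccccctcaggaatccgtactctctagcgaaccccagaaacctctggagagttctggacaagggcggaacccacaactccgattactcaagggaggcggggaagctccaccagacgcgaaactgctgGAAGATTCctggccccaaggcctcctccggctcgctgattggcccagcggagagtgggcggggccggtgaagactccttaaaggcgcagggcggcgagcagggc

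These 2 promoters were identical at 247 of 250 positions. In the GENCODE M21 annotation of the same build, Hspa1a (chr17:34969190-34972156) and Hspa1b (chr17:34956436-34959238) are protein-coding neighbours on the minus strand with 9951 bases between them. Within the first 300 bases of their transcripts, where 5' libraries are read, 44.5% of all 90-base windows of one gene occur in the other. How the authors' counting divided such reads is not given in the sources used here, so the separate values of Hspa1a and Hspa1b are uncertain. Where either is given alone, the same limit holds.

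Hspb1 lies on the plus strand of chromosome 5 (chr5:135887919-135889563), and its promoter at chr5:135887669-135887918 is shown because the gene had the most restricted pattern over cell types. It held 2 matches.
Hspb1: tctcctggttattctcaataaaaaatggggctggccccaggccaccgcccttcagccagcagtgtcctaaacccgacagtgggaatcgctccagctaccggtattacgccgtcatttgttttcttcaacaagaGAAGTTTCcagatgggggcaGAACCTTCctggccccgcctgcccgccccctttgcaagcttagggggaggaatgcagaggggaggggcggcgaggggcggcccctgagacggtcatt

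Hspe1 and Hspd1 on chromosome 1 are transcribed in opposite directions. RefSeq has 1 Hspe1 start and 2 Hspd1 starts, which lie 95 bases inside and 216 bases before the Hspe1 transcript. Between the Hspe1 start and the more distant Hspd1 start lies an 18-base run of overlapping matches, shown on the plus strand at chr1:55088053-55088082.
Hspe1 and Hspd1: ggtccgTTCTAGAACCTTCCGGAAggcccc
Hsph1: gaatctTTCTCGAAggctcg
The Hsph1 stretch is on the minus strand at chr5:149636356-149636375. Of 32851 promoters in the table, 12.8% held GAANNTTC or TTCNNGAA in the 250 bases before the start. A longer form, in which a further unit continues the alternation of GAA and TTC with NN between units, was held by 0.466%. Among the members, the promoter of Hspe1 and that of 1 Hspd1 start held it. Neither of the 2 Dnajb1 starts had a match, and promoter sequences of Hsp90aa1, Hsp90ab1 and Hspa8 were not used here. A match is a run of letters and not a measured binding site.

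Levels over cell types are given as CPM, the UMIs of a gene per 1000000 UMIs summed over the cells of a type in 1 mouse, so each value covers all placed cells of that mouse. They describe 1 gene across types, since CPM is not set against transcript length. Erythroid-like cells, in which at least 50% of UMIs are haemoglobin and little else is transcribed, served as the background from free RNA. Their CPM total includes haemoglobin, which lowers the CPM of all other RNA in them. This background can therefore understate the free RNA of other types. A level above the erythroid-like range does not by itself show expression by the type.

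Hspa1a and Hspa1b encode the stress-inducible Hsp70 proteins. Hspa1a was at 769, 776, 531 and 802 CPM in non-classical monocyte-like cells of placebo mice 1 and 2 and tamoxifen mice 1 and 2, the order of mice kept from here on. Interstitial macrophage-like cells followed with 735, 565, 609 and 662 CPM, and classical monocyte-like cells with 703, 481, 803 and 412 CPM. None of the 20 steps between neighbours in the order of 21 types was free of overlap between the mice, so the order of types is a gradient with no gap. At its lower end stood neutrophil-like cells with 16.4, 23.7, 30.2 and 12.3 CPM. Erythroid-like cells had between 0 and 2.42 CPM, and in each of 19 other types all mice lay above that range. Hspa1b followed the same order closely, with a median of 832 CPM in non-classical monocyte-like and 30.2 CPM in neutrophil-like cells.

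Hspa8 encodes the constitutive Hsp70 of the cytosol. Its level was 2717, 3138, 2817 and 3530 CPM in interstitial macrophage-like cells. In neutrophil-like cells it was 499, 489, 570 and 559 CPM, and the median of interstitial macrophage-like cells was 5.63 times that of neutrophil-like cells. Hsp90aa1 encodes the inducible and Hsp90ab1 the constitutive cytosolic Hsp90, which completes the folding of kinases and steroid receptors, the oestrogen receptor among them. Hsp90ab1 was at 2450, 2317, 2718 and 3196 CPM in type 1 dendritic cell-like cells and at 143, 134, 117 and 176 CPM in neutrophil-like cells, a ratio of medians of 18.7. Between the bulk of the types its values overlapped, and 3 steps down the order were free of overlap. They led from classical monocyte-like to club or secretory-like, from alveolar type 2-like to platelet or megakaryocyte-like and from those to neutrophil-like cells. Hsp90aa1 was lowest in erythroid-like cells, but its background was uneven, with 114, 11.4, 65.3 and 8.05 CPM there. Neutrophil-like cells had 81.7, 97.5, 79.3 and 87.2 CPM, which is not above the top of that range. Each mouse except placebo mouse 1 had more in its neutrophil-like than in its erythroid-like cells.

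Hsph1 encodes an Hsp110 protein that exchanges the nucleotide of Hsp70, and Dnajb1 an Hsp40 protein that delivers substrates to Hsp70. Hsph1 reached 162, 205, 146 and 224 CPM in type 1 dendritic cell-like cells and 183, 205, 173 and 179 CPM in B cell-like cells. Neutrophil-like cells had 1.41 to 3.01 CPM of Hsph1, inside the 0 to 4.83 CPM of erythroid-like cells, so it was not detected above background in the most numerous cells. Dnajb1 behaved otherwise there, with 106, 91.4, 84.6 and 88.7 CPM in neutrophil-like cells against 1.61 to 10.1 CPM in erythroid-like cells. Dnajb1 was at 359, 585, 493 and 784 CPM in alveolar fibroblast-like cells, where its median was the highest of the 21 types. It was low in alveolar macrophage-like cells, at 61.1, 63.9, 49.3 and 46.3 CPM.

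Hspd1 and Hspe1 encode the mitochondrial chaperonin Hsp60 and its lid Hsp10. Hspd1 had its highest median, 212 CPM, in NK cell-like cells, and Hspe1 its highest, 365 CPM, in type 1 dendritic cell-like cells. Both were far lower in neutrophil-like cells, with 3.70 to 7.04 CPM of Hspd1 and 4.93 to 6.73 CPM of Hspe1. Those Hspe1 values lie within the erythroid-like range of 0 to 6.93 CPM, and those of Hspd1 just above its range of 0 to 2.42 CPM.

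Hspb1 encodes the small heat shock protein Hsp25 of the mouse, which holds unfolded proteins without using ATP and binds the actin cytoskeleton. Its highest levels were in stromal, endothelial and epithelial cells. Pericyte or smooth muscle-like cells had 1701, 1839, 3988 and 9579 CPM, mesothelial-like cells 2305, 2190, 1916 and 2854 CPM, and alveolar fibroblast-like cells 1740, 1995, 1729 and 2741 CPM. Aerocyte endothelial-like cells, the gas-exchanging capillary cells, had 988, 1991, 1471 and 3230 CPM, and general capillary endothelial-like cells 428, 378, 690 and 1161 CPM. In T cell-like, NK cell-like, neutrophil-like and monocyte-like cells its median was between 1.55 and 12.1 CPM, and only in 11 types were all mice above the erythroid-like range of 0 to 6.93 CPM. Among these were B cell-like cells, at 80.9, 69.3, 34.9 and 74.9 CPM, and interstitial macrophage-like and type 1 dendritic cell-like cells. Between club or secretory-like and interstitial macrophage-like cells the order had a gap without overlap, from 189 CPM or more down to 167 CPM or less. Of the 90-base windows near the start of Hspb1, 52.9% also occur in the pseudogene Hsp25-ps1, so some of its reads may not be countable. The same holds for 35.2% of the windows of Hspa8, shared with 6 other genes, and 21.6% of those of Hsp90aa1, shared with 2, while Hsp90ab1, Hsph1 and Dnajb1 shared none.

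**Figure D1:**
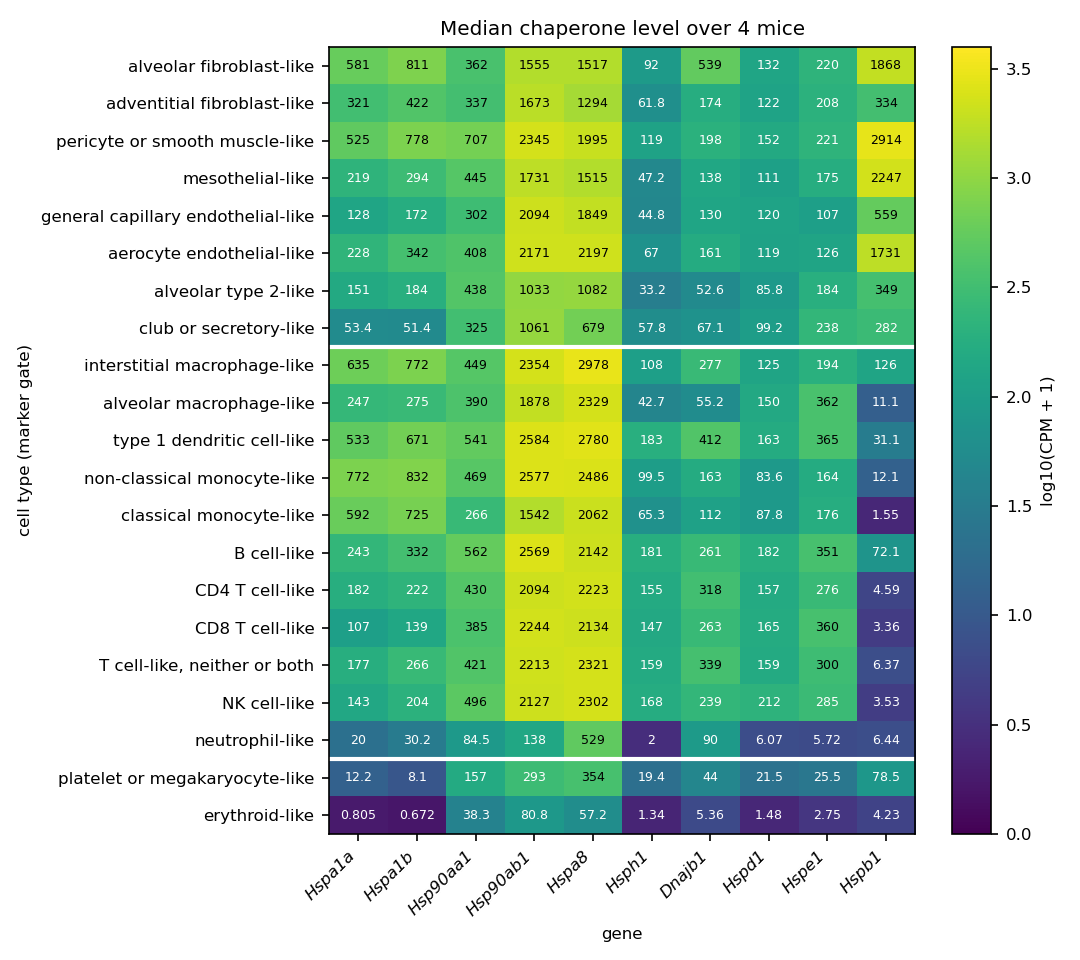
Median CPM over 4 mice of each chaperone (columns) in 21 cell types (rows), coloured on a log10(CPM + 1) scale, with stromal, endothelial and epithelial types above, immune types in the middle and platelets and red cells below. Values compare types within a column, not genes. Neutrophil-like cells are low in most columns, and Hspb1 is high in the upper block, with 2914 CPM in pericyte or smooth muscle-like cells.

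Over the 21 types, the level of Hspa1a was most like that of Hspa1b (Pearson r = 0.996 of log2(CPM + 1)), then Ywhag (0.963) and Tob2 (0.945), among 8988 genes with a mean of at least 10 CPM. Hspa8 was most like Eif3a (0.972), Hnrnpm (0.967) and Eif4a1 (0.967). Hspd1 was most like Cct4 (0.984) and Cct6a (0.984), both subunits of the cytosolic chaperonin TRiC, and Pa2g4 (0.984). Hspb1 was most like Creld1 (0.948), Epn2 (0.945) and Gnai1 (0.942). Among the members, Hspd1 and Hspe1 had r = 0.969, and the lowest value was that of Hspa8 with Hspb1, r = 0.153. These are descriptions over types that share 4 libraries, and the low levels in red cells, platelets and neutrophils enter every one of them.

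The share of cells with at least 1 UMI was compared after thinning each cell to 1000 UMIs. These were drawn from all UMIs of a cell, haemoglobin included, so the limit on the erythroid-like background holds for shares too. Hspa1b was found in 50%, 38.7%, 36.9% and 34.6% of interstitial macrophage-like cells and in 31.3%, 36.4%, 33.5% and 40.3% of alveolar fibroblast-like cells. In neutrophil-like cells the shares were 2.00%, 2.97%, 4.05% and 1.05%. No thinned erythroid-like cell had a UMI, which for the 107 to 307 such cells a mouse allows a share of up to 2.80% in the smallest set. Without thinning, the interstitial macrophage-like shares were 73.7%, 74.4%, 72.9% and 70.5%, and erythroid-like shares reached 1.69%. Hsp90ab1 was in 77.3% to 87.0% of thinned interstitial macrophage-like cells and in 8.22% to 10.7% of neutrophil-like cells, which is close to the 6.78% to 13.1% of erythroid-like cells. By these shares, Hsp90ab1 in neutrophil-like cells lay within the erythroid-like range and was not detectable above background. In CPM, neutrophil-like cells were below erythroid-like cells in placebo mouse 1, at 143 against 239 CPM. They were above them in the other mice, at 134, 117 and 175.5 against 79.3, 82.2 and 78.9 CPM. Intervals and limits on shares cover counting error only.

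The study's comparison was tamoxifen against placebo. In the 8 main types, none of the 77 member tests passed the threshold of an adjusted p of 0.05 (edgeR quasi-likelihood test, Benjamini-Hochberg over all genes of a type), 10 had an unadjusted p under 0.05, and DESeq2 called 0 as well. Over all genes of these types together, 3.57% had an unadjusted p under 0.05 and DESeq2 called 0.032%. Over all genes, edgeR called 0% in B cell-like, 0.0145% in CD4 T cell-like, 0.0338% in CD8 T cell-like, 0.0122% in T cell-like with neither or both, 0% in alveolar fibroblast-like, 0.138% in alveolar macrophage-like, 0.0108% in interstitial macrophage-like and 0% in neutrophil-like cells. The design thus made few calls of any kind, and the members shared in that. In 3 further tests the gene did not reach the count minimum, all of them Hspb1 in the 3 T cell types. In the 13 other types 113 member tests gave 1 call, Hspb1 in type 1 dendritic cell-like cells, which is described below. In the other lymphoid and myeloid types edgeR called 1.06% of genes in NK cell-like, 0.0524% in classical monocyte-like and 0% in non-classical monocyte-like cells.

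The stromal, endothelial and epithelial cells gave the most one-sided picture, and pericyte or smooth muscle-like cells the largest differences. These contractile cells wrap vessels and airways. They were 152, 37, 90 and 62 cells, under the number needed for a main type, and were singled out after their values had been seen. All 10 members were higher in both tamoxifen mice than in both placebo mice, against 11.8% of the 6556 genes tested in this type, and none was lower, against 22.4%. Hspa1a was at 342 and 177 CPM under placebo and 708 and 2362 CPM under tamoxifen. Hspa1b was at 467, 241, 1088 and 2335 CPM. The placebo and tamoxifen mice do not overlap for either, and tamoxifen mouse 2 is far above tamoxifen mouse 1.

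Dnajb1 in the same cells was at 117, 70.2, 280 and 498 CPM, and Hspa8 at 1594, 1405, 2396 and 3870 CPM. Hsp90aa1 was at 542, 559, 855 and 1791 CPM, and Hsp90ab1 at 2222, 2050, 2469 and 3886 CPM. Log2 differences were 2.62 ± 0.54 for Hspa1a, 2.33 ± 0.41 for Hspa1b, 2.03 ± 0.35 for Hspb1 and 2.03 ± 0.34 for Dnajb1 (SE, n = 2 mice a group), and the smallest was 0.66 ± 0.22 for Hsp90ab1. No member was called by edgeR, whose smallest adjusted p of a member was 0.289, and no gene at all was called (0%). The unadjusted p was under 0.05 for 10 of 10 members against 4.03% of all genes. DESeq2 called 1 member, Dnajb1, among 0.0458% of genes, and edgeR without the count filter called all 10 among 0.514%. With cells placed by clusters, equal cells a mouse or doublets kept, edgeR called no member (smallest adjusted p 0.99992, 0.529 and 0.302). Nor did edgeR call any with a stricter gate, no composition scaling or a replicate block (smallest adjusted p 0.147, 0.264 and 0.0851). The median log2 difference of the members was 1.43, beside 0.0036 over all genes, and fell to 0.69 without tamoxifen mouse 2. In tamoxifen mouse 1 alone all 10 members lay above both placebo mice, against 28.1% of genes with at least 10 CPM.

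**Figure D2:**
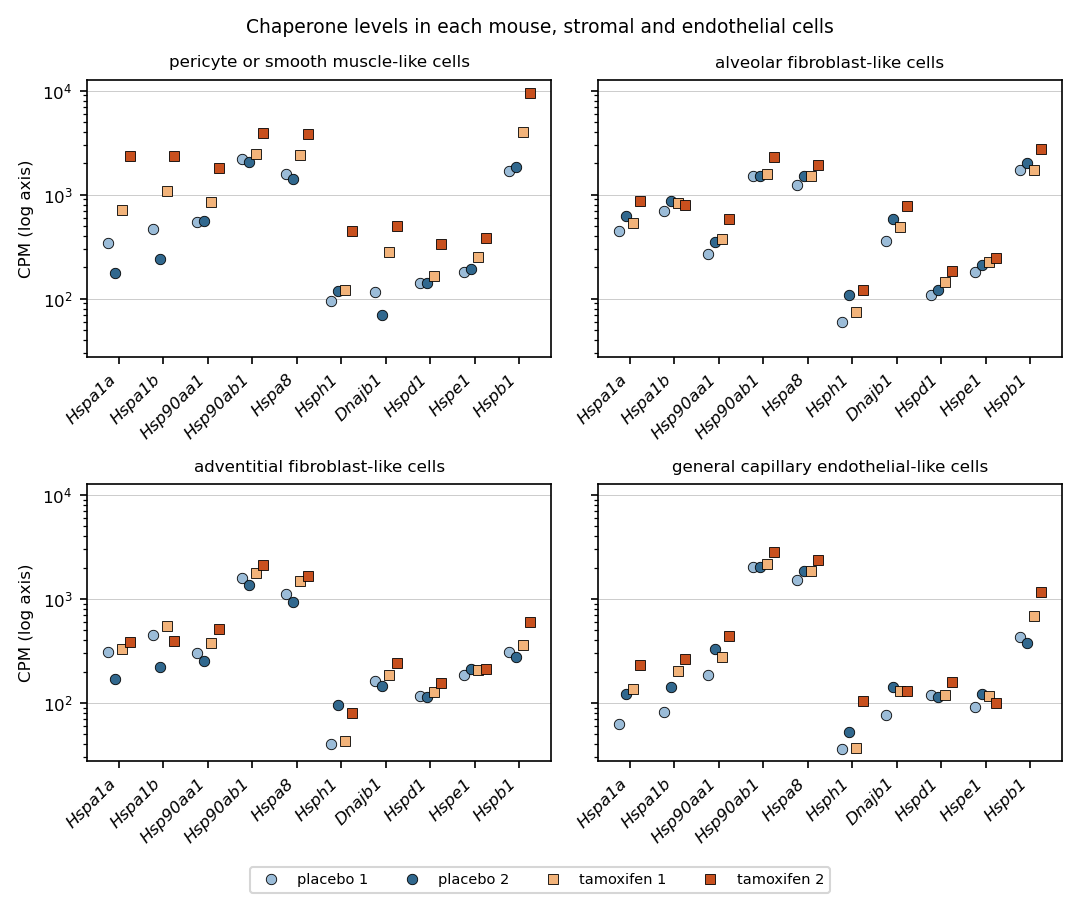
CPM of the 10 chaperones in each mouse (log axis) in 4 stromal and endothelial cell types, placebo mice as circles and tamoxifen mice as squares. In pericyte or smooth muscle-like cells the squares lie above the circles for every gene, and tamoxifen mouse 2 is the highest mouse for 10 of 10.

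Smooth muscle and pericyte markers were present in these cells of every mouse. Acta2, the smooth muscle actin, was at 24252, 23398, 24967 and 27021 CPM, the smooth muscle myosin Myh11 at 3945, 4759, 4068 and 3350 CPM, and the pericyte gene Cox4i2 at 397, 488, 360 and 403 CPM. The muscle filament gene Des was at 1392, 2147, 2229 and 2288 CPM, lowest in placebo mouse 1, and the pericyte receptor gene Pdgfrb at 221, 114, 196 and 231 CPM, lowest in placebo mouse 2. The smooth muscle gene Cnn1 was at 1591, 1639, 1765 and 2120 CPM, and the pericyte gene Gucy1a1 at 689, 645, 601 and 590 CPM. Acta2, Des and Cnn1 were thus higher in both tamoxifen mice without overlap, and Gucy1a1 was lower. The other markers of the gate overlapped between groups. The part of these marker differences in the result was not tested. The haemoglobin gene Hbb-bs, a red cell product, was at 1180, 16.7, 24.7 and 2966 CPM, highest in tamoxifen mouse 2, and its part in the result was not tested. Cells with more smooth muscle than pericyte markers detected, 109, 25, 70 and 42 of them, had 1868, 1991, 4339 and 10430 CPM of Hspb1. The remaining 43, 12, 20 and 20 cells had 1118, 1324, 2149 and 7029 CPM. All 10 members were higher without overlap in the first subset. In the second, with fewer cells, 5 of 10 were, and Hsp90aa1, Hsp90ab1, Hsph1, Hspd1 and Hspe1 overlapped between groups. The share over all genes was not taken in either subset, so these counts have no background beside them.

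Per cell, the difference in Hspb1, Hspa1a and Hspa1b was widest among the high cells. The median smooth muscle cell had 12.1, 14.96, 18.6 and 35.8 Hspb1 UMIs per 10000, and the upper quartile was 22.0, 19.3, 44.6 and 97.6. For Hspa1a the medians were 1.93, 1.29, 2.52 and 7.02 UMIs per 10000 and the upper quartiles 4.00, 2.30, 10.7 and 35.6. Dnajb1 had medians of 0, 0, 1.49 and 1.29 and upper quartiles of 1.97, 1.28, 3.02 and 2.86. It had no such widening and was not highest in tamoxifen mouse 2 by these values. Of 15 early response genes with at least 10 CPM, 6 were higher without overlap and none lower, 13 were highest in tamoxifen mouse 2, and the summed level of the list was 10823 and 6753 CPM under placebo and 10831 and 15886 CPM under tamoxifen. The list holds genes such as Fos and Fosb that enzyme digestion switches on, and its part in the result was not tested.

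**Figure D3:**
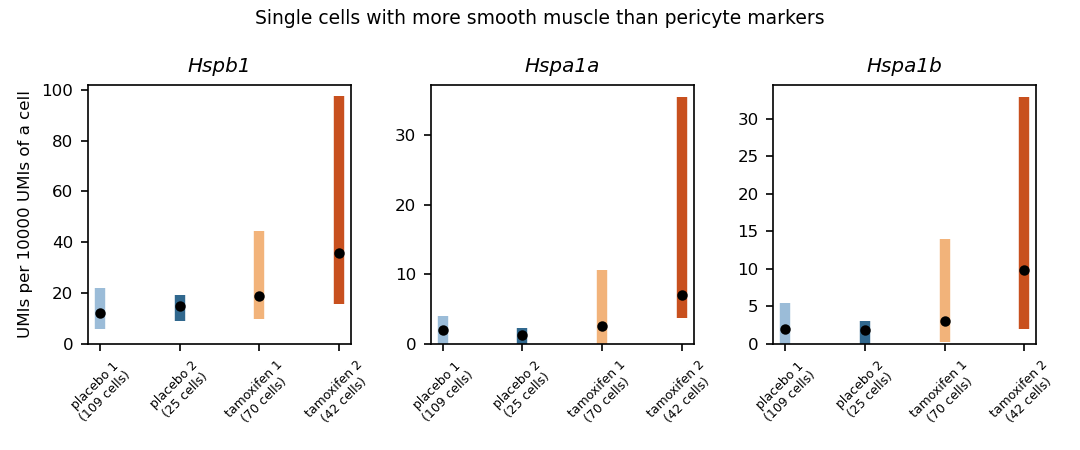
UMIs of Hspb1, Hspa1a and Hspa1b per 10000 UMIs of a cell, in cells with more smooth muscle than pericyte markers, by mouse. Bars span the lower to the upper quartile of cells and dots are medians. Medians and upper quartiles are higher in both tamoxifen mice, and for Hspb1 the upper quartile is 97.6 in tamoxifen mouse 2.

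General capillary endothelial-like cells had 5 of 10 members higher without overlap and none lower, against 13.8% of 8607 genes higher and 19.1% lower, and edgeR called no member where it called 0.0465% of genes. Hspb1 was at 428 and 378 CPM under placebo and 690 and 1161 CPM under tamoxifen, a log2 difference of 1.23 ± 0.24 with an edgeR adjusted p of 0.294. Hspa1a was at 62.3, 121, 136 and 232 CPM, and Hspa1b at 81.0, 144, 201 and 263 CPM. Here, too, the groups do not overlap for these genes. DESeq2 called Hspb1, and 0.0813% of all genes. Of 15 early response genes, 9 were higher without overlap, with summed levels of 6817 and 7117 CPM against 8789 and 10584 CPM, and their part was not tested.

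Fibroblasts make the collagen scaffold of the lung. In alveolar fibroblast-like cells, a main type, 4 of 10 members were higher without overlap and none lower, beside 16.5% of 10278 genes higher and 14.1% lower. Hsp90aa1 was at 266 and 347 CPM under placebo and 376 and 587 CPM under tamoxifen, a log2 difference of 0.65 ± 0.23 (edgeR adjusted p = 1.00). Hspd1 was at 109, 120, 144 and 183 CPM, a log2 difference of 0.52 ± 0.16 (adjusted p = 1.00). Both genes were higher in each tamoxifen mouse than in either placebo mouse, with no call. Of the inducible Hsp70 genes, Hspa1b had 701, 878, 830 and 793 CPM, and its groups overlap. Those of Hspa1a, at 450, 625, 537 and 867 CPM, overlap as well.

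Adventitial fibroblast-like cells, which surround larger vessels and airways, had 7 of 10 members higher without overlap and none lower, against 17.8% of 7675 genes higher and 16.1% lower, with 0.0261% of genes called. Hspa8 was at 1118, 942, 1471 and 1649 CPM there, and Hspb1 at 308, 274, 359 and 593 CPM. In mesothelial-like cells, the lining of the lung surface, 6 of 10 were higher and none lower, against 16.3% of 9261 genes higher and 16.2% lower, with 0.0648% of genes called. Club or secretory-like cells had 2 of 10 higher and none lower (15.8% and 8.01% of genes, 0.218% called), aerocyte endothelial-like cells none either way (15.9% higher and 14.6% lower, 0% called) and alveolar type 2-like cells 1 higher and 1 lower (15.7% and 13.4%, 0% called).

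Tamoxifen mouse 2 was the highest mouse for most members in these cell types. It was so for 8 to 10 of 10 members in each of the 8 stromal, endothelial and epithelial types, whereas it was highest for 16% to 27.4% of all genes there. Without that mouse the median log2 difference of the members changed from 0.34 to 0.06 in alveolar fibroblast-like, from 0.35 to -0.15 in aerocyte endothelial-like, from 0.51 to 0.05 in club or secretory-like, from 0.41 to 0.13 in general capillary endothelial-like, from 0.46 to 0.27 in adventitial fibroblast-like, from 0.21 to 0.10 in mesothelial-like and from 0.08 to -0.30 in alveolar type 2-like cells. Single placebo mice also moved some of these medians. Without placebo mouse 1 the median was 0.17 in alveolar fibroblast-like, 0.03 in aerocyte endothelial-like, 0.23 in general capillary endothelial-like and -0.19 in alveolar type 2-like cells. Without placebo mouse 2 it was 0.02 in club or secretory-like cells. In alveolar fibroblast-like cells tamoxifen mouse 1 was above both placebo mice for 4 of 10 members, against 35.7% of genes, and tamoxifen mouse 2 for 9 of 10, against 32.5%. In adventitial fibroblast-like cells both tamoxifen mice were above both placebo mice for 8 of 10 members, against 34.4% and 33.0% of genes. Fewer cells with the RNA and less RNA a cell cannot be told apart in these sums.

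**Figure D4:**
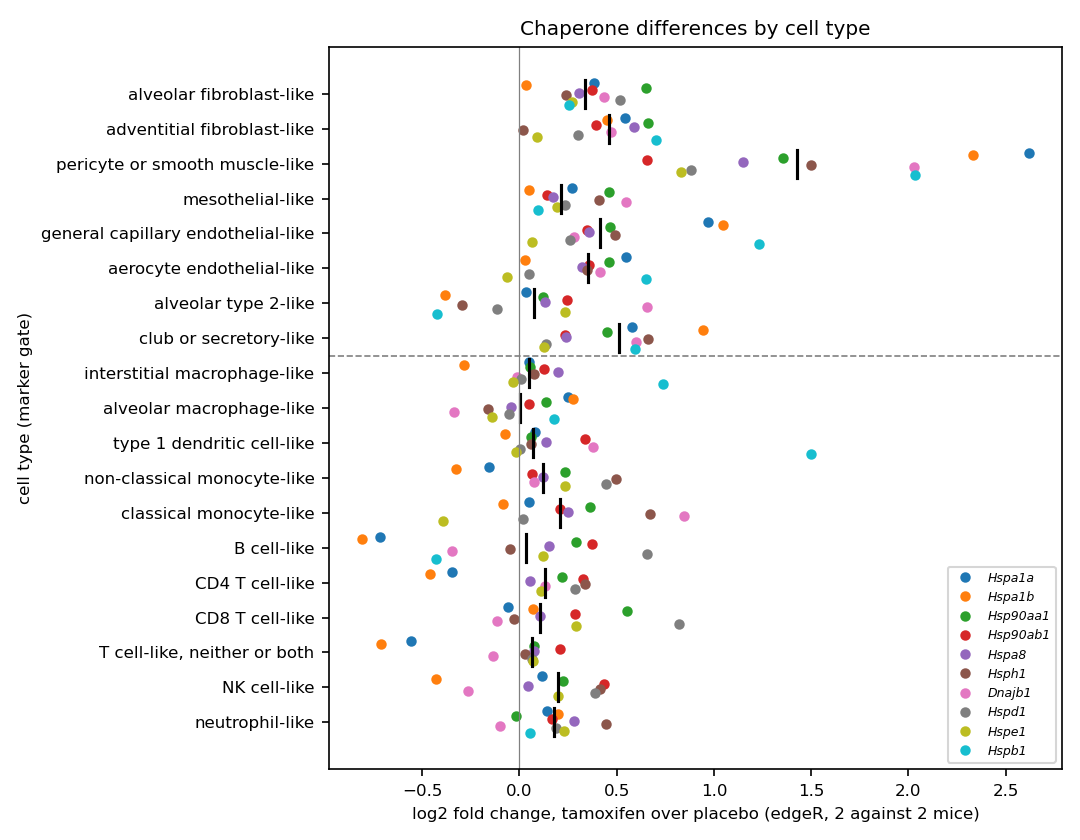
Log2 fold change of each chaperone, tamoxifen over placebo, from edgeR on 2 against 2 mice, in 19 cell types. Black bars are the median of the members tested in a type, 1.43 in pericyte or smooth muscle-like cells, and the dashed line parts stromal, endothelial and epithelial types from immune types.

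In lymphocytes, counts of members without overlap were mostly near those of all genes. B cell-like cells had 1 member higher without overlap, against 11.5% of 8775 genes, and 4 lower, against 23.2%. Hspa1b was at 444 and 350 CPM under placebo and 314 and 114 CPM under tamoxifen, a log2 difference of -0.81 ± 0.38 (edgeR adjusted p = 0.973). Hspa1a was at 346, 267, 219 and 134 CPM, a log2 difference of -0.72 ± 0.23 with an unadjusted p of 0.0152 and an edgeR adjusted p of 0.973. Tamoxifen mouse 2 was the lowest for both. Hsp90ab1 went the other way in that mouse, at 2048, 2660, 2478 and 3269 CPM, with overlapping groups.

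In CD4 T cell-like cells 2 members were higher, against 13% of genes, and 1 lower, against 17.7%. Hspa1b, at 305, 207, 237 and 127 CPM, overlapped between groups. Hspa1a was at 190, 211, 173 and 133 CPM (log2 difference -0.34 ± 0.19) and Hsp90ab1 at 2011, 1974, 2176 and 2716 CPM (0.33 ± 0.14), with edgeR adjusted p-values of 1.00 for both. In T cell-like cells with neither or both of Cd4 and Cd8, Hspa1a was at 265, 187, 168 and 144 CPM, a log2 difference of -0.56 ± 0.17 (adjusted p = 1.00). It was the 1 member that was lower without overlap there, against 14.5% of genes, and none was higher, against 15.5%. Hspa1b, at 376, 262, 270 and 124 CPM, overlapped between groups. CD8 T cell-like cells had 3 members higher, against 14.5% of genes, and none lower, against 16.7%. Hspd1 was at 151 and 153 CPM under placebo and 341 and 177 CPM under tamoxifen, a log2 difference of 0.82 ± 0.24 (adjusted p = 1.00), so that its size came mostly from tamoxifen mouse 1. Hsp90aa1 was at 328, 309, 484 and 443 CPM there, 0.56 ± 0.16 (adjusted p = 1.00).

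The thinned shares of cells with an Hspa1b UMI had the same low value in tamoxifen mouse 2. They were 28.3%, 21.1%, 21.2% and 9.62% of B cell-like and 22.6%, 14.6%, 17.6% and 8.49% of CD4 T cell-like cells. For Hsp90ab1 the shares were 82.2%, 85.9%, 86.3% and 91.1% of B cell-like cells, highest in that mouse.

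**Figure D5:**
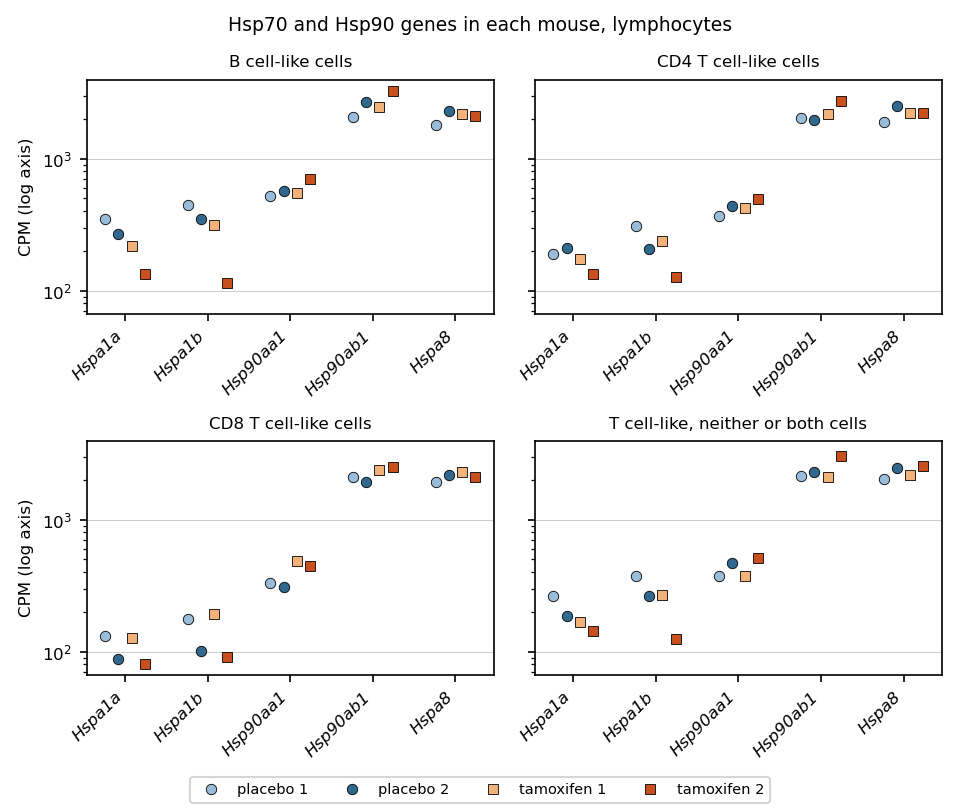
CPM of 5 Hsp70 and Hsp90 genes in each mouse (log axis) in the B cell-like and 3 T cell-like types, placebo mice as circles and tamoxifen mice as squares. Hspa1a and Hspa1b are lowest in tamoxifen mouse 2 in each panel (134 and 114 CPM in B cell-like cells) and Hsp90ab1 is highest there.

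The myeloid main types showed little. In neutrophil-like cells Hspa8 was at 499 and 489 CPM under placebo and 570 and 559 CPM under tamoxifen, a log2 difference of 0.28 ± 0.14 (edgeR adjusted p = 1.00), and it was the 1 member higher without overlap, against 5.47% of 8961 genes. Dnajb1, at 106, 91.4, 84.6 and 88.7 CPM, was the 1 lower, against 25.6% of genes, with -0.10 ± 0.14 (adjusted p = 1.00), and its sign turned without placebo mouse 1. In alveolar macrophage-like cells Hspa1a was at 242, 238, 252 and 298 CPM (0.25 ± 0.18, adjusted p = 0.997), the 1 member higher, against 12.5% of genes. Hspa1b, at 276, 219, 274 and 303 CPM, overlapped between groups there. Dnajb1 was at 61.1, 63.9, 49.3 and 46.3 CPM (-0.34 ± 0.25, adjusted p = 0.997), the 1 lower, against 20.5%. In interstitial macrophage-like cells Hspb1 was at 62.9, 124, 167 and 128 CPM (0.74 ± 0.29, adjusted p = 0.913), the 1 higher, against 11.6% of 9245 genes, and none was lower, against 24.5%. It was called without tamoxifen mouse 2 (0.89, edgeR adjusted p = 0.00845).

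Type 1 dendritic cell-like cells, which present antigen to CD8 T cells, gave the single call, in a type where edgeR called 0.736% of 7878 genes. Hspb1 was at 16.8 and 15.7 CPM under placebo and 47.5 and 45.3 CPM under tamoxifen, a log2 difference of 1.501 ± 0.257 (edgeR adjusted p = 0.0268). The call rested on few molecules, 32, 10, 53 and 48 UMIs. In the tamoxifen mice 84 of the 101 UMIs lay in 3 cells with 5 or more each, and these 3 cells also held 43 UMIs of the collagen gene Col1a2, a fibroblast product. Of the Col1a2 UMIs, 36 lay in the 1 high cell of tamoxifen mouse 2 and 7 in the 2 high cells of tamoxifen mouse 1. In the placebo mice 28 of the 42 UMIs lay in 3 such cells, with 0 UMIs of Col1a2. The high cells of the mice held 19, 9, 9 and 12 UMIs of Xcr1 and Clec9a, markers of this type. The type held 218 placebo and 170 tamoxifen cells, and outside those high cells the placebo group had 14 and the tamoxifen group 17 Hspb1 UMIs. Whether fibroblast RNA in these cells had a part in the call was not tested. The difference was -0.37 with a stricter gate and -0.54 with cells placed by clusters, and DESeq2 did not call it (adjusted p = 0.507).

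The remaining immune types gave no call of a member. Classical monocyte-like cells had 4 members higher without overlap, against 14.4% of 3815 genes, and 1 lower, against 18.2%. Dnajb1 was at 97.8 and 101 CPM under placebo and 232 and 124 CPM under tamoxifen, a log2 difference of 0.84 with an unadjusted p of 0.011 and an edgeR adjusted p of 0.999, and Hsph1 at 48.9, 52.2, 78.5 and 80.6 CPM. Hspe1 was lower in both tamoxifen mice, at 196, 219.8, 157 and 155 CPM. NK cell-like cells had 2 members higher, against 18.7% of genes, and 1 lower, against 16.9%. Hspb1 did not reach the count minimum in either type. Hspa1b in NK cell-like cells was at 182, 246, 226 and 39.3 CPM, so tamoxifen mouse 2 was the lowest here as in the lymphocytes above, with overlapping groups. Hspa1a, at 114, 160, 155 and 131 CPM there, was not lowest in that mouse. Hsp90ab1 was higher there without overlap, at 1756, 2094, 2160 and 3153 CPM.

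Non-classical monocyte-like cells had 1 member higher, against 13.6% of genes, and 1 lower, against 21.3%. The lower one was Hspa1b, at 907 and 1038 CPM under placebo and 741 and 758 CPM under tamoxifen (log2 difference -0.33, edgeR adjusted p = 0.928). Hspa1a was at 769, 776, 531 and 802 CPM in these cells, with overlapping groups. In type 1 dendritic cell-like cells 3 members were higher, against 15% of genes, and 1 lower, against 16.5%, and Dnajb1 was at 362, 379, 445 and 496 CPM. Platelet or megakaryocyte-like cells had too few UMIs for more than 3 members to be tested, of which 1 was higher (13.6% of genes) and 1 lower (23.2%).

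Whether a member moved differently in 2 types of the same mice was tested for all 28 pairs of main types. None of 262 member tests of the difference passed (smallest edgeR adjusted p = 0.669), and 43, or 16.4%, had an unadjusted p under 0.05. Over all genes of the pairs the shares that passed and that had an unadjusted p under 0.05 were 0.0179% and 4.24%. Each type enters several pairs, so the tests of a gene are not independent and the 43 are not separate results. A difference between lymphocytes and fibroblasts was therefore not established for any member by this test.

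Some chaperone genes were highest in tamoxifen mouse 2 across many cell types. For each gene the margin of a mouse over the highest of the other 3 was taken on the log2(CPM + 5) scale in 19 types, leaving out red cells and platelets, and its median was ranked over 32285 genes. In tamoxifen mouse 2 Hsp90ab1 ranked 7, with a margin of 0.32, Hsp90aa1 ranked 11 (0.27), Hspa1a 15 (0.20), Hsph1 20 (0.15) and Hspa8 21 (0.14). Dnaja1, an Hsp40 partner of Hsp70, ranked 8 (0.31), and the Hsp90 partner Chordc1 ranked 9 (0.29). Hsp90ab1 was highest in this mouse in 18 of 19 types, Hsp90aa1 in 17, Hspa8 and Hsph1 in 13, Hspa1a in 11, Hspd1 and Hspb1 in 10, Dnajb1 in 9, Hspa1b in 7 and Hspe1 in 6. The same mouse was the lowest for Hspa1b in 8 types, for Hspa1a in 6 and for Dnajb1 in 4, so the members did not share 1 pattern. Both mice numbered 2 were above both mice numbered 1 in 11 of 19 types for Hsp90aa1, Hsph1 and Hspe1 and in 10 for Hspa8. They were so in 5 types for Hspa1a, Hspd1 and Hspb1, in 4 for Hsp90ab1 and Dnajb1 and in 2 for Hspa1b. The share over all genes was not taken for these counts. The chemokine Cxcl1 ranked 1 (0.58) and the early response gene Fosb 5 (0.43), and their part in the chaperone levels was not tested. No member was among the 15 highest genes of the other 3 mice.

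The split of UMIs between the 2 near-identical genes was shifted in that mouse, although both were its highest in smooth muscle and its lowest in the lymphocytes. Hspa1a made up 37.7% to 46.7% of the UMIs of Hspa1a and Hspa1b together over the types of placebo mouse 1, 38.5% to 52.1% in placebo mouse 2, 32.8% to 50% in tamoxifen mouse 1 and 46.9% to 54.0% in tamoxifen mouse 2. Medians over 18 types a mouse were 41.7%, 43.0%, 40.9% and 50.1%. Of 17 types with at least 50 such UMIs in every mouse, the share was highest in tamoxifen mouse 2 in 16. Hspa1b ranked 30734 of 32285 by its margin in tamoxifen mouse 2, while Hspa1a ranked 15. Genes without counts entered this ranking and stand above every gene with a negative median margin. A rank near the end therefore says little by itself. Pseudogenes and close copies of other genes, Rpl10-ps3 at rank 2, H2-Q2 at rank 4 and Ftl1-ps1 at rank 6, also stood out in this mouse, and whether the split of reads between near-identical copies differed in that library was not tested.

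The wider chaperone network was followed with 8 further lists in the main types, and no gene of any list was called by edgeR. Of the partners of Hsp70, 149 tests of 22 genes gave 4 unadjusted p-values under 0.05, and the most abundant of them, Dnaja1, had log2 differences from -0.02 to 0.39 over the 8 types, while the nucleotide exchange factor Hspa4 had -0.23 to 0.10. Partners of Hsp90 gave 2 of 136, with Ptges3, the p23 cochaperone, at -0.07 to 0.23 and Cacybp at -0.16 to 0.49. Regulators of the heat shock response gave 1 of 42, with Ier5, which regulates heat shock factor 1, at -0.67 to 0.04. Hsbp1, which binds heat shock factor 1, was at -0.10 to 0.28. Subunits of TRiC, the ring chaperonin that folds actin and tubulin, gave 5 of 64. Cct2 was at -0.27 to 0.42, and Cct5 at -0.15 to 0.36.

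Chaperones of the endoplasmic reticulum gave 6 of 98 tests with an unadjusted p under 0.05. Hspa5, the Hsp70 of that compartment, was at -0.16 to 0.53 and Hsp90b1, its Hsp90, at -0.06 to 0.26. In B cell-like cells 8 of 12 of these genes were higher without overlap and none lower, against 11.5% and 23.2% of all genes, with a list median of 0.39. Mitochondrial chaperones and proteases gave 1 of 69, with the mitochondrial Hsp70 gene Hspa9 at -0.76 to 0.42 and its exchange factor Grpel1 at -0.26 to 0.14. In neutrophil-like cells 6 of 7 of these genes were lower without overlap and none higher, against 25.6% and 5.47% of all genes, with a list median of -0.31. Other small heat shock proteins gave 1 of 15, with Cryab at -0.05 to 0.05 and Hspb11 at -0.63 to 0.48. Early response genes gave 17 of 122, with Junb at -0.11 to 0.20 and Zfp36 at -0.59 to 0.20. Medians of the 8 lists over the main types ranged from -0.63 to 0.48, both in the small heat shock proteins, of which few were tested.

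Shares of tests without overlap, over the main types, were read beside 12.5% higher and 19.7% lower for all genes of those types. They were 29.7% higher and 7.81% lower for TRiC, 25.5% and 11.2% for the endoplasmic reticulum, 14.1% and 14.8% for Hsp70 partners and 13.97% and 5.88% for Hsp90 partners. Mitochondrial chaperones had 13% and 26.1%, heat shock response regulators 9.52% and 23.8%, small heat shock proteins 6.67% and 26.7%, and early response genes 7.38% and 12.3%. The members themselves had 16.9% higher and 10.4% lower.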

How the data were processed

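The deposited matrices hold UMI counts per gene and barcode, made by the authors with Cell Ranger 5.0.0 per the file headers. The mm10 build and another version, Cell Ranger 8.0.1, stand in the submitters' processing notes, and which version made the files was not settled. A barcode was kept as a cell if it had 250 genes or more and no more than 15% mitochondrial UMIs. Cells with a Scrublet score over 0.25 (scanpy 1.11.5), 1.20% to 2.16% a mouse, were left out as doublets. A cell was placed if at least 3 markers of a type were detected, its score was at least 0.2 and it led the next unrelated type by 1.5 times. Erythroid-like cells needed at least 50% haemoglobin UMIs, and although their smallest mouse held 108 cells they were kept as background and not counted as a main type. Gate thresholds were set with cells, and for red cells some member levels, in view, but not with tests between groups in view. Of placed cells in named clusters (Leiden, leidenalg 0.10.2, resolution 4, chaperone genes left out), 98.1% had the same name.

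Counts were summed per mouse and type and tested with edgeR 4.0.16 (TMM scaling, filterByExpr, quasi-likelihood F test, Benjamini-Hochberg within a type, threshold 0.05). CPM was computed without TMM scaling, and the SE was derived from the F statistic. The code was tested on simulated data. The mouse is the replicate. Members and lists were chosen with earlier results of these data known. Members given full statistics were those called, and in each main type the 2 with the largest difference among those without overlap between groups. Chosen after values were seen were the account of pericyte or smooth muscle-like and other smaller types, the split of those cells by markers, the threshold of 5 UMIs in dendritic cells, the ranking of single mice and the share of Hspa1a. Alternatives were DESeq2 1.42.0, a replicate block, no TMM scaling, no count filter, leaving out each mouse, a strict gate (4 markers, score 0.3, lead 2.5), clusters, doublets kept and equal cells a mouse. Promoters came from RefSeq tables on GRCm38.p6, and gene positions and transcripts from GENCODE M21.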

Additional observations from a re-analysis of the deposited data

Results flagged for a closer look

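Some members lay higher in both tamoxifen mice in one cell type and lower in both in another, and the difference between those types was not tested. With 2 mice a group, genes without overlap in a single type are frequent, as the shares beside each type show. How many of all genes are higher in one type and lower in another was not counted. The higher type was pericyte or smooth muscle-like in each case. Hspa1a had log2 differences of 2.62 there and -0.72 in B cell-like cells, Hspa1b 2.33 and -0.81, Dnajb1 2.03 and -0.35, and Hsph1 1.498 and -0.0504. Hsp90aa1 had 1.35 there and -0.45 in platelet or megakaryocyte-like cells. Hspe1 had 0.83 there and -0.39 in classical monocyte-like cells. Hspb1 had 2.03 there and -0.42 in alveolar type 2-like cells.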

How the results depend on the processing

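Of the 15 named differences, 172 of 181 values under alternatives kept their direction and their side of the threshold. Apart from the Hspb1 call in type 1 dendritic cell-like cells, their edgeR adjusted p-values were 0.913 or more. Staying uncalled was thus to be foreseen for them. Pericyte or smooth muscle-like cells, whose number of members called changed with the setting, were not among the 15. The sign turned for Dnajb1 in neutrophil-like cells without placebo mouse 1 (range over left-out mice -0.236 to 0.0605) and for Hspb1 in type 1 dendritic cell-like cells with clusters (-0.54) and the strict gate (-0.37). Counts of all genes called by edgeR moved more than those of members. The order of types below is B cell, CD4 T, CD8 T, T cell with neither or both, alveolar fibroblast, alveolar macrophage, interstitial macrophage, neutrophil, pericyte or smooth muscle and type 1 dendritic cell, where the report's counts of genes called were 0, 1, 2, 1, 0, 8, 1, 0, 0 and 58. Without the count filter 88, 28, 29, 51, 59, 27, 0, 63, 76 and 220 genes were called, with 1 member in B cell (Hspa1b), 1 in CD8 T (Hspd1), 2 in T cell with neither or both (Hspb1 and Hspa1b), 1 in alveolar fibroblast (Hsp90aa1) and 10 in pericyte or smooth muscle-like cells. DESeq2 called 4 genes in B cell, 0 in CD4 T, CD8 T and alveolar macrophage, 12 in interstitial macrophage, 3 in neutrophil, 3 in pericyte or smooth muscle (1 member, Dnajb1) and 38 in type 1 dendritic cell-like cells (0 members). Without composition scaling 0 genes were called in CD4 T, 1 in CD8 T and 18 in alveolar macrophage-like cells. With clusters 1 gene was called in CD8 T, 0 in alveolar macrophage and 0 in type 1 dendritic cell-like cells (0 members), and T cells with neither or both could not be fitted since no cluster has that name. The strict gate gave 1 in B cell, 4 in CD4 T, 5 in CD8 T, 4 in T cell with neither or both, 0 in alveolar macrophage, 2 in pericyte or smooth muscle and 0 in type 1 dendritic cell-like cells (0 members). With doublets kept 1 gene was called in B cell, 5 in T cell with neither or both and 1 in alveolar macrophage-like cells. Equal cells a mouse gave 14 in B cell, 0 in CD8 T, 17 in T cell with neither or both, 0 in alveolar macrophage, 9 in interstitial macrophage and 22 in type 1 dendritic cell-like cells (0 members). The cause of these changes was not tested. Leaving out 1 mouse gave 0 to 20, 0 to 54, 7 to 36, 4 to 86, 0 to 62, 3 to 25, 0 to 221, 6 to 91, 6 to 66 and 77 to 232 genes called, under the assumption that the lone mouse of a group varies like the other pair. Members called then ranged from 0 to 1 in CD8 T (Hspd1 without tamoxifen mouse 2, 1.13, edgeR adjusted p = 0.000248), T cell with neither or both, interstitial macrophage and neutrophil, 1 to 10 in pericyte or smooth muscle and 1 to 1 in type 1 dendritic cell-like cells, and stayed at 0 in the other types named. In pericyte or smooth muscle-like cells Hspb1 was the 1 member called without tamoxifen mouse 2.

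Nothing in the labels says that same-numbered mice belong together, and their deviations from the group means correlated at -0.362 to 0.212 over the genes of the 8 main types, so they were not taken as pairs. The mice numbered 2 were alike in other respects, with 1.20% and 1.26% of cells called doublets against 2.09% and 2.16% in those numbered 1, and with lower mitochondrial shares. With the replicate block 10 genes were called in B cell, 0 in CD4 T, 16 in CD8 T, 5 in T cell with neither or both, 7 in alveolar fibroblast, 17 in alveolar macrophage, 18 in interstitial macrophage and 131 in type 1 dendritic cell-like cells, with no member called in a main type. With the pairing crossed, an alternative added after seeing the data for the types with a correlation under -0.1, 51 genes were called in interstitial macrophage and 27 in neutrophil-like cells and 0 members in either. Depth limits the smaller types and members. Pericyte or smooth muscle-like cells numbered 37 in placebo mouse 2, and Hspb1 in dendritic cells rested on 10 UMIs in that mouse. With 2 mice a group the spread between mice is itself measured with little precision.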
